A study of Homo sapiens with 12 samples.

Results

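Molt-4 and Jurkat, a pair of human cell lines from T-cell acute lymphoblastic leukaemia (T-ALL), were compared without drug by RNA sequencing. The comparison used 6 of the 12 libraries of the series, 3 of untreated Jurkat and 3 of untreated Molt-4, and every gene with an FPKM of at least 1 in 3 or more of these 6 libraries. FPKM is a fragment count scaled to gene length and library size, so levels of different genes can be set side by side. This filter kept 12503 of the 25146 genes in the table. At its edge, 12 genes reached exactly 1 FPKM in the library that decided, and were kept, and 8 genes reached 0.99 FPKM there and were left out. Both lines were grown in RPMI medium with fetal bovine serum and received no drug. The other 6 libraries came from the same lines treated with 2 µM chidamide, an inhibitor of class I histone deacetylases and HDAC10, with 48, 49 and 50 h given as the time of replicates 1, 2 and 3. They helped to estimate the spread between libraries, which both comparisons share, and served as a second comparison of the lines. Library titles carry only J or M, which was taken to stand for Jurkat or Molt-4 because the culture protocol mentions no other line. Each line stands for the leukaemia of 1 patient, so a difference between them is a difference between these cultures. Whether the 3 replicates of a line were grown separately is not given, and the p-values therefore reflect the scatter of these libraries, which may be technical.

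T-ALL arises from immature T cells of the thymus, and each case carries its own set of activated transcription factors, such as TAL1, LMO1, LMO2, LYL1 or the HOXA genes, on a background of the T-cell receptor, NOTCH1 and interleukin-7 pathways. Jurkat is a mature-type line with a T-cell receptor on its surface, widely used to study receptor signalling, and is known to lack the phosphatase protein SHIP1 (INPP5D). Molt-4 is a line of an earlier thymocyte type. Globins, GATA1 and KLF1 belong to red cell precursors, and keratins and EPCAM belong to epithelia. Neither group is a feature of T cells.

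The libraries were checked against the labelled cell type with 10 T-lineage markers (CD3D, CD3E, CD3G, CD247, CD2, CD5, CD7, LCK, BCL11B and TCF7). All 10 were expressed in each of the 6 libraries, with a lowest value of 9.45 FPKM, that of CD2 in untreated Molt-4 replicate 2. The erythroid and megakaryocyte list, in contrast, summed to between 430.0 and 481 FPKM in the Jurkat libraries, where GYPC and TFRC, both also used by other blood cells, made up most of it, and to between 11271 and 11979 FPKM in the Molt-4 libraries. Epithelial markers summed to between 2.07 and 3.31 FPKM in Jurkat and to between 120.5 and 124 FPKM in Molt-4. The B-cell genes MS4A1 and PAX5, the myeloid genes MPO, CD14 and CSF1R and the fibroblast genes COL1A2, DCN and LUM were at or near 0 in all 6 libraries, with 0.95 FPKM (CD14) as the highest value. Other genes of such cells were not. CD79A, a signalling chain of the B-cell receptor, was at 27.4 ± 2.55 against 2.85 ± 0.406 FPKM (Jurkat against Molt-4). The whole B-cell list summed to between 361 and 403 FPKM in Jurkat and between 118 and 119 FPKM in Molt-4, mostly through IGLL1, and 2 of its 5 tested genes were called higher and 3 lower. The NK and cytotoxic list summed to between 11.5 and 13.8 FPKM and between 51.5 and 55.4 FPKM, and the myeloid list to between 8.03 and 9.26 FPKM and between 27.1 and 29.6 FPKM. Myeloid RNA was thus not absent. Of 5 tested genes of that list 3 were called higher in Molt-4 and 2 lower. Of these 5, 2 passed the filter through Molt-4 alone and 2 through Jurkat alone, so those had to differ. The remaining 1 was called higher. CD33 was at 0.227 ± 0.229 against 10.3 ± 0.92 FPKM and CD68 at 1.16 ± 0.221 against 5.58 ± 0.33 FPKM (Jurkat against Molt-4). CTSG, a myeloid granule gene outside the list, had a mean of 284 FPKM in Jurkat and 12.7 FPKM in Molt-4. The fibroblast and endothelial list summed to between 76.2 and 86.4 FPKM and between 16.2 and 22.1 FPKM, mostly through PECAM1. The part of such RNA in the differences described next was not tested. The libraries labelled Molt-4 thus held T-lineage RNA together with RNA of genes that T cells do not use, and they are called Molt-4 here by their label. In bulk RNA, 1 kind of cell with both sets of genes and a mixture of cells cannot be told apart, nor can fewer cells of a type and less RNA per cell.

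Total FPKM lay between 738730 and 771200 in 5 of the 6 libraries and at 869060 in untreated Molt-4 replicate 3. In that library 10.1% of the sum came from 7SL RNA genes, against 3.18% to 4.15% in the others. Untreated Jurkat replicate 3 stood apart from the other Jurkat libraries. Its log2 ratios to them had an SD of 0.331 and 0.336, while the remaining pairs of replicates gave 0.229 to 0.261. The number of reads behind each value is unknown, because the files give FPKM only.

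Most genes differed between the lines. Of the 12503 genes tested, 8495 (67.9%) were called at an adjusted p under 0.05, 3568 higher in Molt-4 (28.5%) and 4927 lower (39.4%). A log2 difference of at least 1 in size, called 2-fold here, was also reached by 1270 genes higher in Molt-4 (10.2%) and 1368 lower (10.9%). All differences are Molt-4 minus Jurkat on the log2(FPKM + 1) scale, given ± SE, which understates the difference of genes with low values. Levels are mean FPKM ± SD with n = 3 libraries per line. The median difference over all genes tested was -0.091. Median-of-ratios scaling moved it by 0.11 to 0.014, and with that scaling 51.4% of the calls were higher in Molt-4 in place of 42.0%. With equal totals without the 7SL RNA genes the share was 37.1%, and with quantile normalization it was 46.7%. Small differences are therefore best read against that median, while the larger ones described next are far outside it. The libraries of the lines did not overlap for 68.4% of the genes. A share of called genes in a list near 67.9% is therefore no result about that list, and the sizes of its named members are given as well. Counts in each direction are to be read against the 28.5% and 39.4% of all genes. A gene under 1 FPKM in every library of a line passed the filter through the other line alone and had to differ. Counts of lists that hold such genes are descriptions.

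**Figure D1:**
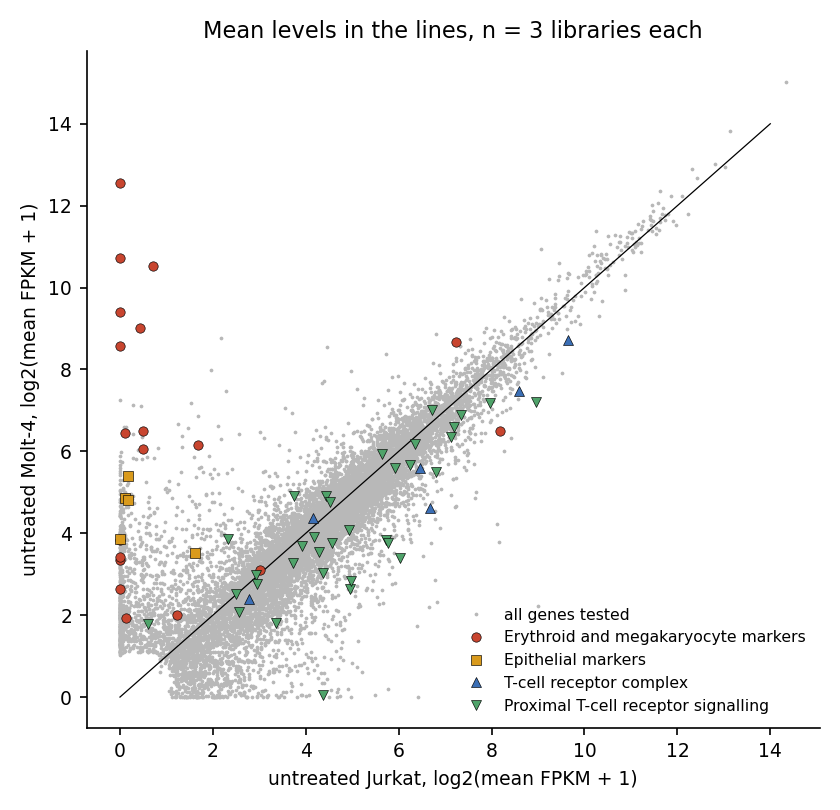
Mean level of each tested gene in untreated Jurkat (x axis) and untreated Molt-4 (y axis), both as log2(mean FPKM + 1) over 3 libraries, with 4 gene lists in colour and the line of equal levels in black. Most erythroid and epithelial markers lie at the left edge, near 0 in Jurkat, while 5 of the 6 genes of the T-cell receptor complex lie below the line of equal levels.

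The highest differences belonged to the globins, the oxygen carriers of red cells. HBG2, a fetal gamma-globin gene, was listed at 0 in all Jurkat libraries and was at 5709, 6003 and 6289 FPKM in Molt-4 (log2 difference 12.55 ± 0.058, adjusted p = 4.44e-19). Its neighbour HBG1 was likewise at 0 in Jurkat and at 1637, 1672 and 1716 FPKM in Molt-4 (log2 difference 10.71 ± 0.045, adjusted p = 2.94e-19). The embryonic globins HBZ and HBE1 were also listed at 0 in all Jurkat libraries. In Molt-4 HBZ was at 696, 664 and 670.4 FPKM and HBE1 at 366, 379 and 397 FPKM. The alpha-globin gene HBA1 was at 0.35, 1.01 and 0.53 FPKM in Jurkat and at 1484, 1413 and 1519.8 FPKM in Molt-4 (log2 difference 9.84 ± 0.45, adjusted p = 1.26e-09). The adult beta-globin gene HBB was low in Molt-4, at 3.75, 2.01 and 2.74 FPKM against 0, 0.28 and 0 FPKM in Jurkat, and was not called (adjusted p = 0.0787). The spread behind each SE and p-value was estimated over all 12 libraries, the treated ones included. The libraries of the lines did not overlap for any of these globins, HBB included. The high levels were those of the alpha-like, embryonic and fetal globins, and each of them lay close together in the 3 Molt-4 libraries. HBG1 and HBG2, and HBA1 and HBA2, are nearly identical pairs, so the split of reads within each pair is uncertain.

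The factors that drive red cell genes were present as well. GATA1, the erythroid and megakaryocyte zinc finger factor, was at 0.04, 0.08 and 0.13 FPKM in Jurkat and at 89.1, 86 and 85.5 FPKM in Molt-4 (log2 difference 6.34 ± 0.1, adjusted p = 1.06e-13). KLF1, which activates the adult globin and other erythroid genes, was at 0.54, 0.43 and 0.23 FPKM and 94.2, 86.7 and 85.5 FPKM (log2 difference 6.01 ± 0.11, adjusted p = 2.88e-13). GATA2, a factor of blood progenitors, was at 2.2 ± 0.231 against 69.8 ± 2.75 FPKM (Jurkat against Molt-4). NFE2, a partner in globin gene activation, was at 0.1 ± 0.0529 against 96 ± 2.9 FPKM. No Jurkat library reached the level of any Molt-4 library for these 4 genes. AHSP, the chaperone of free alpha-globin, was at 0.42 ± 0.563 against 66 ± 10.8 FPKM, and ALAS2, the erythroid enzyme of the first step of haem synthesis, was listed at 0 in Jurkat and at 13.3 ± 2.72 FPKM in Molt-4. RHAG, an ammonia channel of the red cell membrane, and ANK1, the red cell ankyrin, were listed at 0 in Jurkat and at 53.7 ± 2.41 and 42.2 ± 4.51 FPKM in Molt-4. PKLR, the pyruvate kinase of red cells and liver, was at 0.0167 ± 0.0289 against 62.3 ± 1.6 FPKM.

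Of the 26 genes of the erythroid and megakaryocyte list, 19 passed the filter, and 16 of these were called higher and 1 lower. For 12 of the 19 every Jurkat library was under 1 FPKM, so they passed through Molt-4 alone and had to be high there, and the count over the 19 is a description only. Of the other 7, 5 were called higher and 1 lower. That list also holds genes that did not follow. GYPC, a membrane glycoprotein present on many blood cells, was lower in Molt-4 (291 ± 56.9 against 88.6 ± 5.06 FPKM, log2 difference -1.69 ± 0.1, adjusted p = 2.07e-08). EPOR, the erythropoietin receptor, was at 7.12 ± 0.659 against 7.55 ± 0.28 FPKM and was not called (adjusted p = 0.402). The platelet genes PF4, PPBP and GP9 were at most at 0.15 FPKM in any of the 6 libraries, and SLC4A1 and EPB42, which serve the mature red cell membrane, reached at most 1.53 and 0.78 FPKM in Molt-4. Without untreated Jurkat replicate 3, 15 members were called higher, and without untreated Molt-4 replicate 3, 16 were. Between the treated lines, 16 of the tested members were called in the same direction as between the untreated ones.

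The promoters of KLF1, RHAG, ALAS2 and HBD, a minor adult globin gene, are shown because these genes moved together and each window holds the core of a GATA site. TAL1, itself lower in Molt-4, is shown beside them. The windows are the 250 bases before the start site, read 5′ to 3′ on the strand of the gene from RefSeq (GRCh38.p14), a later build than that of the files. Capitals mark GATAA or its reverse complement TTATC. KLF1 lies on the minus strand at chr19:12887202-12887451, RHAG on the minus strand at chr6:49636840-49637089, ALAS2 on the minus strand at chrX:55030978-55031227, HBD on the minus strand at chr11:5234484-5234733 and TAL1 on the minus strand at chr1:47232336-47232585.
KLF1: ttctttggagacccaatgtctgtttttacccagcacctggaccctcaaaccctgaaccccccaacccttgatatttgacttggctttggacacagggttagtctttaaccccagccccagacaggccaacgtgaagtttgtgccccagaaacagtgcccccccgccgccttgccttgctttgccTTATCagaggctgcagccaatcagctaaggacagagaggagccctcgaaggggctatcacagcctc
RHAG: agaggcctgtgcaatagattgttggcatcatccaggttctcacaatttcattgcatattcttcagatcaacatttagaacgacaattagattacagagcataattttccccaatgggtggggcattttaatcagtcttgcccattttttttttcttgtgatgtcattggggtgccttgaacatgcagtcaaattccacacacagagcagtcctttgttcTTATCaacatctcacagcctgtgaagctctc
ALAS2: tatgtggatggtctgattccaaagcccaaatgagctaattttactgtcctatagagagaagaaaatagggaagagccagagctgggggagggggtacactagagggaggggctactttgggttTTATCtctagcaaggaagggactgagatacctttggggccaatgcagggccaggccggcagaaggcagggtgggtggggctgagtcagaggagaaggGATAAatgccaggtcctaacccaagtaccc
HBD: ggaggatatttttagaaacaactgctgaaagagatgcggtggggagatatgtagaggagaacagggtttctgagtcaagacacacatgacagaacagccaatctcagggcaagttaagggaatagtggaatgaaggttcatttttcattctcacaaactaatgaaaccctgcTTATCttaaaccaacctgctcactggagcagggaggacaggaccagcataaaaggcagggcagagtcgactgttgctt
TAL1: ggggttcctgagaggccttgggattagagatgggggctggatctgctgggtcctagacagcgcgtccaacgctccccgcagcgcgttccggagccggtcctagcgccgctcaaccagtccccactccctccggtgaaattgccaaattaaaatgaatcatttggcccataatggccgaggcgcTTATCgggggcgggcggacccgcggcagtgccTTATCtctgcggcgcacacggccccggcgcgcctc

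Searched on both strands, GATAA occurred once in the KLF1, RHAG and HBD windows and in 2 places each in the ALAS2 and TAL1 windows. Of the 9831 tested genes with such a window, 12.4% held it. The GATA1 window held none. These windows were chosen after their genes' values were seen, and a match describes the letters only. Windows were matched for 10 of the 19 tested genes of the erythroid list, so a check of base content or motifs over that list was void for want of coverage. Of 155 windows matched for the 220 genes expressed in Molt-4 only, 18.1% held GATAA. Of 32 windows matched for the 46 genes expressed in Jurkat only, 6.25% held it. The median GC content of these 2 sets was 62.0% and 63.4%, against 64.8% over all tested genes with a window. Whether these shares differ beyond chance was not tested.

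**Figure D2:**
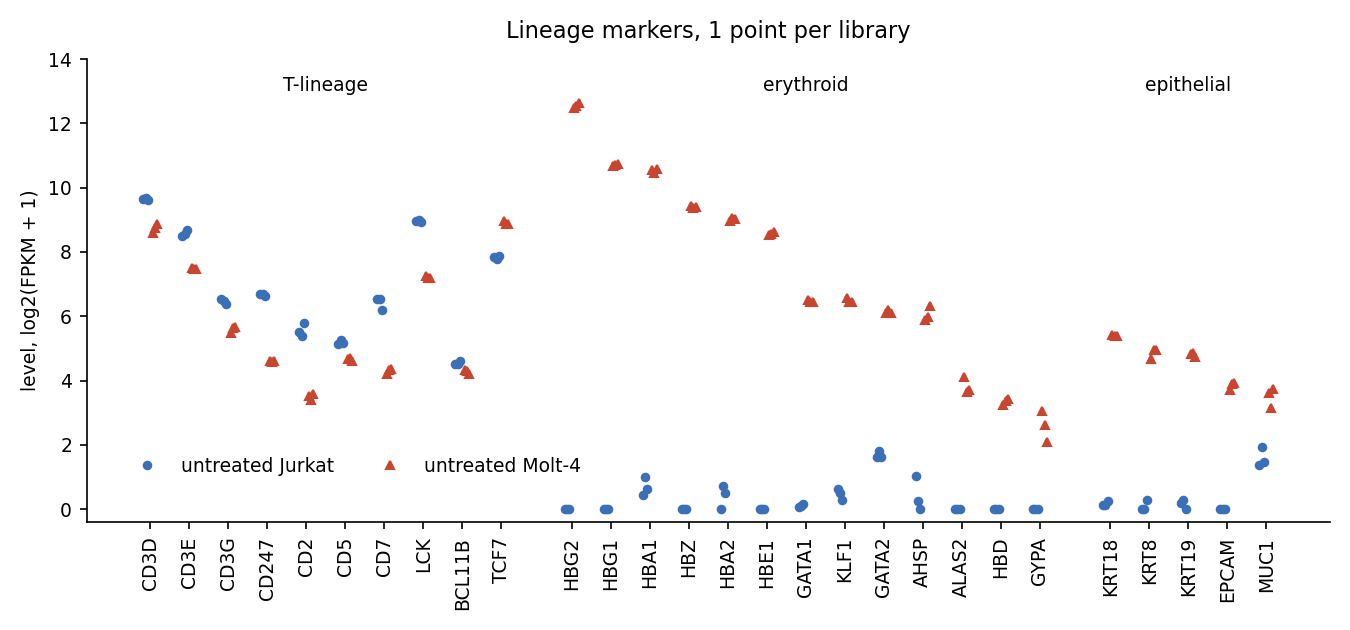
Level of lineage markers in each untreated library, as log2(FPKM + 1), with circles for the 3 Jurkat and triangles for the 3 Molt-4 libraries. The T-lineage markers are present in both lines, whereas the globin genes HBG2, HBG1, HBZ and HBE1 are at 0 in Jurkat and HBG2 reaches between 5709 and 6289 FPKM in Molt-4.

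Epithelial genes formed the second set of this kind. Of the 10 genes of the list 5 passed the filter and were called higher in Molt-4. For 4 of the 5 every Jurkat library was under 1 FPKM, so they passed through Molt-4 alone and had to differ, and that count is a description only. The other was MUC1, at 2.05 ± 0.649 against 10.5 ± 2.31 FPKM (log2 difference 1.91 ± 0.21, adjusted p = 5.21e-06). KRT18, a keratin of simple epithelia, was at 0.1, 0.09 and 0.19 FPKM in Jurkat and at 42.2, 40.9 and 40.6 FPKM in Molt-4 (log2 difference 5.23 ± 0.11, adjusted p = 6.1e-13). Its partner KRT8 was at 0, 0 and 0.22 FPKM and 24.3, 29.9 and 30.2 FPKM, and KRT19 at 0.14, 0.22 and 0 FPKM and 27.3, 28.2 and 25.4 FPKM. EPCAM, an epithelial adhesion protein, was listed at 0 in all Jurkat libraries and was at 12.2, 14 and 14.1 FPKM in Molt-4. The 3 Molt-4 libraries lay far above all Jurkat libraries for each. The other epithelial genes were low in both lines: KRT5, KRT14, CLDN4 and CLDN7 were at most at 0.19, 0.12, 0.1 and 1.08 FPKM, and CDH1, the cadherin that defines epithelia, was at 2.38, 1.12 and 0.79 FPKM in Molt-4.

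The 12 largest differences among genes with a mean of at least 5 FPKM held genes outside these lists as well. NMU, which encodes the peptide neuromedin U, was listed at 0 in Jurkat and was at 159, 142 and 155 FPKM in Molt-4 (log2 difference 7.25 ± 0.075, adjusted p = 3.34e-15). S100A11, a calcium-binding protein, was at 0.22 ± 0.255 against 139.9 ± 4.5 FPKM. HSPA1A, the inducible heat shock protein 70, was at 0.62, 0.51 and 0 FPKM in Jurkat and 139.9, 135 and 133 FPKM in Molt-4, and it has a near-identical copy in HSPA1B. HIST1H2BK, a histone H2B gene, was at 3.5 ± 1.06 against 437 ± 42.5 FPKM, and LOC283352, a transcript without a gene name, at 0.0633 ± 0.11 against 95.6 ± 9.36 FPKM. The largest difference in the other direction was that of MYO7B, a myosin known from the brush border of gut and kidney. It was at 496, 474 and 562 FPKM in Jurkat and at 4.04, 2.99 and 4.08 FPKM in Molt-4 (log2 difference -6.77 ± 0.1, adjusted p = 5.26e-14).

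The other genes with the largest levels in favour of Jurkat had varied roles. FBLN2, a matrix protein, was at 53.7 ± 6.32 against 0.14 ± 0.199 FPKM. THY1, a small surface glycoprotein, was at 42.2, 46.4 and 43.1 FPKM in Jurkat and 0.04, 0.02 and 0.03 FPKM in Molt-4 (log2 difference -5.44 ± 0.1, adjusted p = 2.96e-13). RNF212, a meiotic recombination gene, was at 31.7, 28 and 31.9 FPKM in Jurkat and listed at 0 in Molt-4. FCGRT, the neonatal Fc receptor, was at 29 ± 3.33 against 0.137 ± 0.195 FPKM, CLEC11A, a secreted growth factor of blood cells, at 82.9 ± 5.6 against 2.32 ± 0.606 FPKM, and MBP, the myelin basic protein gene that is also active in lymphocytes, at 24.5 ± 2.04 against 0.0967 ± 0.103 FPKM. FLT4, a receptor of vascular endothelial growth factors, was at 25.6 ± 6.66 against 0.0233 ± 0.0208 FPKM. The small RNA gene SCARNA16 was at 89.97, 80.9 and 81.3 FPKM in Jurkat and at 0 in Molt-4, and FPKM of so short a gene is the least certain of these values.

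Most of the measured genes of the T-cell receptor complex were lower in Molt-4. CD3E, a signalling chain, was at 363, 376 and 410.1 FPKM in Jurkat and at 179, 176 and 178 FPKM in Molt-4 (log2 difference -1.10 ± 0.051, adjusted p = 1.38e-09). CD3D was at 802, 819 and 788 FPKM and 382, 426 and 463 FPKM (log2 difference -0.92 ± 0.068, adjusted p = 1.18e-07). CD247, the zeta chain that carries most of the signalling motifs, was at 102, 103 and 99 FPKM and 23.7, 23.1 and 23.4 FPKM (log2 difference -2.07 ± 0.057, adjusted p = 9.98e-12). The lines did not overlap for any of these. Of the 12 genes listed 6 were in the table, and all 6 were tested. Of these, 5 were called lower and 0 higher, against 39.4% and 28.5% of all genes, and the median was -0.89. With median-of-ratios scaling, with quantile normalization and without untreated Jurkat replicate 3, 4 were called lower and 1 higher. CD3G and PTCRA, which pairs with the beta chain in the pre-receptor, completed the 5, and TRAT1 was not called. PTCRA was at 5.84 ± 1.25 against 4.25 ± 0.287 FPKM (log2 difference -0.37 ± 0.14, adjusted p = 0.0305), and its call was lost without untreated Jurkat replicate 3 (adjusted p = 0.131) and in 7 other alternatives.

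The signalling proteins behind the receptor were mostly lower too. Of 34 tested, 23 were called lower (67.6%) and 7 higher (20.6%), against 39.4% and 28.5% of all genes, with a median of -0.51. Of the 34, 1 passed the filter through Molt-4 alone and 1 through Jurkat alone. Of the other 32, 22 were called lower and 6 higher. SYK, a kinase that couples antigen receptors to their pathway, had the largest difference, with 20.5, 20.3 and 17.9 FPKM in Jurkat and 0.06, 0.02 and 0.01 FPKM in Molt-4 (log2 difference -4.32 ± 0.19, adjusted p = 6.48e-10). Its relative ZAP70, the kinase that T cells use, was at 239, 251 and 254 FPKM and 148, 142 and 141 FPKM (log2 difference -0.78 ± 0.062, adjusted p = 2.42e-07). LCK, which phosphorylates the CD3 chains, was at 496 ± 12.1 against 146 ± 3.46 FPKM (log2 difference -1.76 ± 0.04, adjusted p = 1.76e-12). The inhibitory adaptors SIT1 and SLA2 were at 64.7 ± 4.07 against 9.5 ± 1.55 and 30.04 ± 2.22 against 5.25 ± 0.563 FPKM, and RASGRP1, which switches on RAS, was at 30.6 ± 2.35 against 6.08 ± 0.64 FPKM. Among the members called higher were SH2D2A, an adaptor of LCK (3.99 ± 0.684 against 13.5 ± 0.87 FPKM), and PLCG1 (105 ± 5.17 against 128 ± 6.35 FPKM). The adaptors GRAP2, PAG1 and CBLB were not called.

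Surface proteins of the T lineage split into lower and higher sets. Of 25 tested, 15 were called lower in Molt-4 and 9 higher, with a median of -0.89. Of the 25, 5 passed the filter through Molt-4 alone and 3 through Jurkat alone, so those had to differ. Of the other 17, 12 were called lower and 4 higher, against 39.4% and 28.5% of all genes. CD28, the main costimulatory receptor, was at 30.9, 28.9 and 39.98 FPKM in Jurkat and at 0.49, 0.66 and 0.85 FPKM in Molt-4 (log2 difference -4.35 ± 0.12, adjusted p = 1.36e-11). CD48, CD226, CD7 and CD2 were at 44 ± 13.8 against 8.43 ± 0.214, 5.13 ± 0.779 against 0.237 ± 0.14, 85.3 ± 11.2 against 18.6 ± 0.996 and 46.4 ± 6.73 against 10.3 ± 0.788 FPKM. In the other direction CD44, an adhesion receptor, was at 0, 0.16 and 0.12 FPKM in Jurkat and 11.6, 11.9 and 13.6 FPKM in Molt-4 (log2 difference 3.61 ± 0.096, adjusted p = 7.09e-12). CD38 was at 1.19, 2.4 and 6.58 FPKM and 24.9, 30.5 and 36.7 FPKM, and the progenitor marker CD34 at 0.197 ± 0.0723 against 7.51 ± 0.227 FPKM. CD52 and the checkpoint receptor PDCD1 were at 17.6 ± 1.26 against 90.2 ± 6.23 and 0.107 ± 0.0666 against 3.53 ± 0.199 FPKM. CD4 was at 8.13 ± 0.623 against 3.2 ± 0.881 FPKM (log2 difference -1.14 ± 0.13, adjusted p = 5.16e-06), and CD8A was at 0.737 ± 0.106 against 2 ± 0.147 FPKM (log2 difference 0.79 ± 0.089, adjusted p = 5.88e-06).

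Genes of immature thymocytes differed gene by gene. Of 16 tested, 9 were called lower (56.25%) and 5 higher (31.25%), against 39.4% and 28.5% of all genes. RAG1, which cuts DNA in receptor gene rearrangement, was at 38, 37.5 and 36.5 FPKM in Jurkat and 91.6, 91.6 and 84.6 FPKM in Molt-4 (log2 difference 1.23 ± 0.069, adjusted p = 7.77e-09), while its partner RAG2 was at 23.9 ± 3.76 against 22.4 ± 1.27 FPKM and was not called (adjusted p = 0.546). DNTT, which adds bases at the junctions, was at 103, 98.2 and 168 FPKM and 74.9, 77.4 and 73.8 FPKM (log2 difference -0.65 ± 0.18, adjusted p = 0.00628), with the highest value in untreated Jurkat replicate 3. The surrogate light chain genes went in opposite directions, with IGLL1 at 341 ± 23.5 against 79.9 ± 1.81 FPKM and VPREB1 at 1.16 ± 0.652 against 28.1 ± 1.61 FPKM. The lipid-presenting CD1 genes did so as well. CD1D was at 42.6 ± 3.56 against 6.13 ± 0.252 FPKM and CD1C at 56.2 ± 4.57 against 14.2 ± 1.14 FPKM, whereas CD1B was at 32 ± 5.24 against 87.5 ± 3.15 FPKM.

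The lines expressed different T-ALL transcription factors. LMO2, a bridging protein of the TAL1 complex that also serves red cell precursors, was at 0.12, 0 and 0.04 FPKM in Jurkat and 37.4, 38.5 and 39.7 FPKM in Molt-4 (log2 difference 5.23 ± 0.11, adjusted p = 8.97e-13). LMO1, which can take its place, was at 6.57, 7.63 and 6 FPKM in Jurkat and listed at 0 in all Molt-4 libraries (log2 difference -2.95 ± 0.15, adjusted p = 3.47e-09). TAL1, the factor that both bridge, was at 72.5, 74.4 and 71.9 FPKM in Jurkat and 35.8, 20.3 and 19.7 FPKM in Molt-4 (log2 difference -1.55 ± 0.18, adjusted p = 8.68e-06), so it was present in both lines. LYL1, a close relative of TAL1, was at 0.81, 0.46 and 0.72 FPKM and 60.9, 53.1 and 55.3 FPKM (log2 difference 5.11 ± 0.12, adjusted p = 2.78e-12). HHEX and ERG, factors of early blood progenitors, were at 0.177 ± 0.218 against 30.3 ± 1.13 and 0.547 ± 0.177 against 17.7 ± 1.18 FPKM. Of 18 tested members 9 were called higher and 8 lower. Of the 18, 6 passed the filter through Molt-4 alone and 2 through Jurkat alone, so those had to differ. Of the other 10, 3 were called higher and 6 lower. MYC was at 281, 278 and 220.3 FPKM in Jurkat and 235, 239.8 and 219 FPKM in Molt-4, and was not called (adjusted p = 0.0904), while without untreated Jurkat replicate 3 its log2 difference was -0.27 (adjusted p = 0.000139).

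Factors that commit cells to the T lineage were called lower in 16 and higher in 8 of 28 tested members, with a median of -0.30. Of the 28, 2 passed the filter through Molt-4 alone and 1 through Jurkat alone, so those had to differ. Of the other 25, 15 were called lower and 6 higher, against 39.4% and 28.5% of all genes. RUNX3, which acts in CD8 T cells, was at 16.7, 18.6 and 14.7 FPKM in Jurkat and 1.1, 0.58 and 0.88 FPKM in Molt-4 (log2 difference -3.26 ± 0.11, adjusted p = 8.35e-11). NFIL3 was at 17.4 ± 0.821 against 2.89 ± 0.407 FPKM, SATB1, a chromatin organiser of thymocytes, at 96.7 ± 3.95 against 30.3 ± 1.85 FPKM and ETS1 at 176 ± 16.2 against 64.2 ± 3.39 FPKM. ZBTB7B, which directs cells to the CD4 lineage, was higher in Molt-4 at 0.71 ± 0.176 against 10.9 ± 1.97 FPKM (log2 difference 2.79 ± 0.14, adjusted p = 2.76e-09), as were ID2 at 1.43 ± 0.431 against 10.1 ± 2.22 FPKM and IKZF4 at 0.0267 ± 0.0231 against 4.41 ± 0.574 FPKM. GATA3 was at 33.1, 29.8 and 37.6 FPKM and 21.4, 20.6 and 28.8 FPKM (log2 difference -0.50 ± 0.13, adjusted p = 0.00417), and BCL11B at 22.4 ± 0.765 against 18.5 ± 0.864 FPKM. TCF7, by contrast with most of the list, was at 227 ± 5.86 against 479 ± 15.6 FPKM (log2 difference 1.07 ± 0.043, adjusted p = 3.29e-10).

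HOX genes, which give cells positional identity and are activated in part of T-ALL, showed a different set in each line. Of 37 measured, 14 passed the filter, and 7 were called higher and 7 lower in Molt-4. Of the 14, 4 passed through Molt-4 alone and 4 through Jurkat alone, so those had to differ and the count is a description only. Of the other 6, 3 were called higher and 3 lower. HOXA7 was at 13.8, 15.8 and 15.4 FPKM in Jurkat and 0, 0.04 and 0 FPKM in Molt-4 (log2 difference -3.98 ± 0.1, adjusted p = 5.7e-12), and its neighbours HOXA5 and HOXA6 were at 3.9 ± 0.423 against 0 ± 0 and 5.01 ± 0.595 against 0.0667 ± 0.115 FPKM. HOXB2 and HOXB9 were the reverse, at 0.17, 0.29 and 0.16 and 0.02, 0 and 0.18 FPKM in Jurkat and 29.3, 28.1 and 30.2 and 29.6, 31 and 27.1 FPKM in Molt-4. Within the HOXB cluster HOXB3 and HOXB4 were expressed in both lines, at 13.1 ± 1.75 against 20.2 ± 1.48 and 5.99 ± 0.409 against 11.3 ± 0.646 FPKM, and HOXB7 was lower in Molt-4, at 7.93 ± 0.601 against 2.71 ± 0.38 FPKM. HOXC10 was at 7.53 ± 0.924 against 0.367 ± 0.119 FPKM and HOXD13 at 2.34 ± 0.195 against 8.83 ± 0.391 FPKM.

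**Figure D3:**
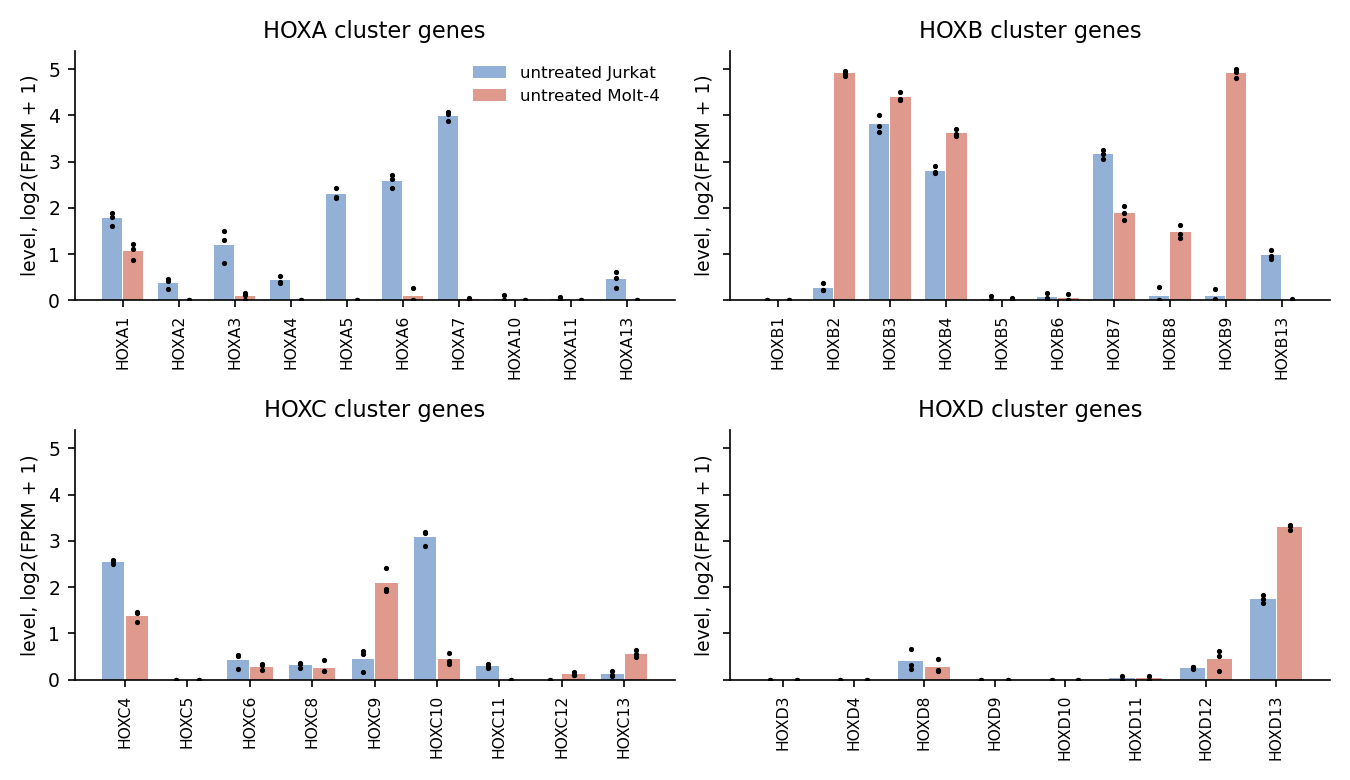
Levels of the HOX genes of the 4 clusters in untreated Jurkat and Molt-4, as log2(FPKM + 1). Bars are means of 3 libraries and points are single libraries. HOXA5, HOXA6 and HOXA7 are expressed in Jurkat and at or near 0 in Molt-4, and HOXB2 and HOXB9 show the reverse.

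NOTCH1, the receptor most often mutated in T-ALL, was at 22.5, 22.2 and 17.6 FPKM in Jurkat and 81.6, 75.1 and 75.1 FPKM in Molt-4 (log2 difference 1.85 ± 0.088, adjusted p = 1.63e-09). NOTCH3, a receptor gene that NOTCH1 activates, went the other way, at 29.4, 27.5 and 24.6 FPKM and 1.55, 2.54 and 2.43 FPKM (log2 difference -3.16 ± 0.13, adjusted p = 4.72e-10). The ligand gene JAG2 was at 2.78 ± 0.308 against 16 ± 1.16 FPKM and PSEN2, a catalytic subunit of gamma-secretase, at 0.02 ± 0.0346 against 6.73 ± 0.61 FPKM. RBPJ, the DNA-binding partner of the cleaved receptor, was at 29 ± 3.46 against 27.6 ± 1.31 FPKM and was not called. Of 24 genes of the receptors and their machinery 8 were called higher and 9 lower. That is 70.8% of them, near the 67.9% of all genes, so the count is no result about the list.

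The targets of NOTCH1 did not share a direction. Of 20 tested, 9 were called higher and 9 lower, with a median of -0.11. Of the 20, 1 passed the filter through Molt-4 alone and 3 through Jurkat alone, so those had to differ. Of the other 16, 8 were called higher and 6 lower. HES1, a repressor that marks NOTCH activity in thymocytes, was at 1.35, 0.87 and 0.86 FPKM in Jurkat and 31.7, 31.2 and 30.8 FPKM in Molt-4 (adjusted p = 5.97e-11). HES4, of the same family, was at 108, 118 and 111 FPKM and 4.82, 3.59 and 3.54 FPKM (log2 difference -4.52 ± 0.11, adjusted p = 4.07e-12). DTX1, a ubiquitin ligase of the pathway, was at 47.6, 46.9 and 31.7 FPKM and 4.73, 4.98 and 5.64 FPKM, whereas NRARP, a feedback inhibitor of the pathway, was at 0.433 ± 0.107 against 4.4 ± 0.87 FPKM. IL7R, the interleukin-7 receptor, was at 6.58, 5.66 and 6.53 FPKM and 0.03, 0.43 and 0.03 FPKM (log2 difference -2.66 ± 0.17, adjusted p = 2.85e-08). CCND3 was at 117 ± 9.96 against 240.3 ± 1.39 FPKM.

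STAT5A carries signals of interleukin-7 and erythropoietin receptors to the nucleus. It was at 28.8, 30.1 and 32.1 FPKM in Jurkat and 246, 246 and 255 FPKM in Molt-4 (log2 difference 2.997 ± 0.05, adjusted p = 1.43e-13). Its neighbours in the genome STAT5B and STAT3 were at 37.2 ± 4.29 against 89.4 ± 4.8 and 41.4 ± 3.06 against 92.4 ± 3.26 FPKM. CISH and SOCS3, feedback inhibitors that cytokines induce, were at 2.1 ± 0.399 against 23.8 ± 1.84 and 0.423 ± 0.0404 against 6.76 ± 0.295 FPKM. Of 31 tested genes of this list 14 were called higher and 11 lower. Of the 31, 3 passed the filter through Molt-4 alone and 2 through Jurkat alone, so those had to differ. Of the other 26, 11 were called higher and 9 lower. Among chemokine receptors CCR9, which guides thymocytes, was at 0.1, 0.19 and 0.05 FPKM and 34.7, 35.8 and 34.5 FPKM (log2 difference 5.02 ± 0.096, adjusted p = 3.73e-13), while CCR8 and S1PR3 were at 2.99 ± 0.817 against 0.03 ± 0.052 and 13.8 ± 1.83 against 1.69 ± 0.0513 FPKM. Integrins and their ligands were called lower in 12 and higher in 2 of 18 tested members, with a median of -0.85. Of the 18, 3 passed the filter through Jurkat alone, so those had to be lower. Of the other 15, 9 were called lower and 2 higher, against 39.4% and 28.5% of all genes. ITGAL, the alpha chain of LFA-1, was at 41.1, 44.5 and 50.9 FPKM and 4.53, 3.96 and 4.77 FPKM (log2 difference -3.10 ± 0.099, adjusted p = 4.32e-11), and PECAM1 was at 78.9 ± 4.8 against 19.1 ± 2.91 FPKM.

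INPP5D, which encodes SHIP1, a lipid phosphatase that opposes PI3K, was at 9.71, 10.4 and 13.8 FPKM in Jurkat and 11.2, 11.2 and 11.4 FPKM in Molt-4 and was not called (adjusted p = 0.948). INPP4A was at 52.8 ± 8.06 against 22.4 ± 2.66 FPKM. PIK3R5, a regulatory subunit of PI3K-gamma, was at 9.28 ± 1.63 against 0.977 ± 0.162 FPKM. Of 31 tested genes of this pathway 16 were called lower and 6 higher, a share of 71.0% near the 67.9% of all genes. The median was -0.25. In the RAS-MAPK pathway the feedback inhibitors SPRY4 and SPRED1 were higher in Molt-4 (0.0467 ± 0.0153 against 4.86 ± 0.501 and 2.61 ± 0.197 against 14.3 ± 1.77 FPKM), and the phosphatase gene DUSP2 was lower (34.2 ± 6.93 against 7.29 ± 0.826 FPKM).

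Among growth control genes MTAP and CCND1 were expressed in Molt-4 only. MTAP, an enzyme of the methionine salvage pathway that lies next to CDKN2A, was listed at 0 in all Jurkat libraries and was at 21.6, 19.2 and 22.6 FPKM in Molt-4 (log2 difference 4.47 ± 0.097, adjusted p = 1.16e-12). CDKN2A itself was below the filter, at 0, 0.12 and 0.11 FPKM in Jurkat and 1, 0.14 and 0.34 FPKM in Molt-4. CCND1, a G1 cyclin that most T cells do not use, was at 0.01, 0.01 and 0.04 FPKM and 23.5, 27.1 and 22.5 FPKM (log2 difference 4.63 ± 0.16, adjusted p = 8.62e-11), CCNE1 at 5.9 ± 1.02 against 21.6 ± 1.98 FPKM, and CCND2 at 3.62 ± 0.335 against 0.61 ± 0.0173 FPKM. TP53I11 was at 36 ± 2.29 against 0.54 ± 0.3 FPKM, FAS at 9.95 ± 1.54 against 3.16 ± 0.615 FPKM and CDKN1A, the p21 inhibitor, at 1.29 ± 0.327 against 0.637 ± 0.0503 FPKM.

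PMS2, a DNA repair gene, was lower in Molt-4, at 11.9 ± 0.95 against 4.32 ± 0.368 FPKM, and so was MGMT, which repairs alkylated guanine, at 29.6 ± 0.119 against 7.88 ± 0.963 FPKM. Death receptors of the TRAIL ligand were exchanged, with TNFRSF10A at 0.347 ± 0.265 against 12 ± 1.41 FPKM and TNFRSF10B at 18.6 ± 2.58 against 3.68 ± 0.576 FPKM. Of 20 tested death receptor genes 13 were called lower (65.0%) and 3 higher (15.0%), against 39.4% and 28.5% of all genes. Of the 20, 1 passed the filter through Molt-4 alone and had to be higher. BAX was at 77, 93.9 and 75 FPKM and 99, 86.9 and 105 FPKM and was not called (adjusted p = 0.0627). Of 17 tested members of the BCL2 family 6 were called higher and 6 lower, a share of 70.6% near the 67.9% of all genes. BIK and BID were lower in Molt-4, at 17.3 ± 2.44 against 3.46 ± 0.22 and 194 ± 13.3 against 98.5 ± 5.14 FPKM, and BCL2L2 was higher, at 2.14 ± 1.24 against 5.59 ± 0.502 FPKM.

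MHC class I genes HLA-C and HLA-B were lower in Molt-4. HLA-C was at 104, 109 and 113 FPKM in Jurkat and 19.8, 18.3 and 19.9 FPKM in Molt-4 (log2 difference -2.43 ± 0.053, adjusted p = 1.16e-12), and HLA-B at 49.8 ± 9.19 against 3.9 ± 2.86 FPKM. HLA-E was higher, at 30.4 ± 7.41 against 58.9 ± 3.65 FPKM, and B2M, the shared light chain, was at 1178 ± 18.7 against 943 ± 46.9 FPKM. Of 17 tested members of the class I presentation list 9 were called lower (52.9%) and 5 higher (29.4%), against 39.4% and 28.5% of all genes. Of the 17, 1 passed the filter through Jurkat alone and had to be lower. HLA genes vary between individuals and resemble each other, so their values are less certain than those of most genes. Interferon-stimulated genes were called higher in 14 and lower in 15 of 38 tested members, a share of 76.3% against 67.9% of all genes. Of the 38, 3 passed the filter through Molt-4 alone, so those had to be higher. IFITM1 was at 19.9, 20.6 and 22.6 FPKM and 371, 351 and 397 FPKM (log2 difference 4.09 ± 0.062, adjusted p = 5.99e-14), MX1 at 0.02 ± 0.0346 against 6.72 ± 0.69 FPKM and MX2 at 2.24 ± 0.661 against 25.1 ± 0.989 FPKM. ISG15 and XAF1 were lower, at 112 ± 13.8 against 31.6 ± 4.86 and 19.8 ± 7.58 against 2.2 ± 0.212 FPKM. Of 5 tested NK and cytotoxic genes 1 was called higher in Molt-4 and 2 lower. The higher one, PRF1, the pore protein perforin, was at 2.02, 2.05 and 2.72 FPKM and 50.6, 47.4 and 44.9 FPKM (log2 difference 3.90 ± 0.084, adjusted p = 1.09e-12). Its usual partner GZMB was below the filter, with 0.60 FPKM as its highest value. GZMA and GZMH were lower, at 2.5 ± 1.04 against 0.8 ± 0.217 and 1.67 ± 0.32 against 0 ± 0 FPKM. GZMH passed the filter through Jurkat alone and had to be lower.

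Chidamide, the drug used elsewhere in the series, acts on HDAC1, HDAC2, HDAC3 and HDAC10. HDAC1 was at 303 ± 27.6 against 235 ± 15 FPKM (log2 difference -0.36 ± 0.065, adjusted p = 0.000319), HDAC2 at 212 ± 2.29 against 173 ± 10.4 FPKM (log2 difference -0.30 ± 0.049, adjusted p = 0.000179), HDAC10 at 49.8 ± 7.9 against 34.4 ± 4.26 FPKM (log2 difference -0.52 ± 0.12, adjusted p = 0.00193) and HDAC3 at 50.4 ± 1.57 against 77.6 ± 3.76 FPKM (log2 difference 0.61 ± 0.051, adjusted p = 3.46e-07). HDAC9 was further apart, at 3.5, 4.56 and 9.43 FPKM in Jurkat and 0.1, 0.27 and 0.03 FPKM in Molt-4, and HDAC11 was at 8.88 ± 3.1 against 3.94 ± 0.435 FPKM. Of 18 tested members, sirtuins included, 8 were called lower and 3 higher, a share of 61.1% against 67.9% of all genes. Linker histones changed places: HIST1H1C was at 2.77, 3 and 2.86 FPKM and 249, 252 and 262 FPKM (log2 difference 6.04 ± 0.081, adjusted p = 2.2e-14), whereas H1F0 was at 39.2 ± 18.2 against 5.29 ± 0.547 FPKM. Of 32 tested core histone genes of the HIST1 family, 23 were called higher in Molt-4 and 1 lower, with a median of 1.75. Over all genes 28.5% were called higher and 39.4% lower. Some of the 32, such as HIST1H4D and HIST1H2AE at 0 in all Jurkat libraries, passed the filter through Molt-4 alone and had to be higher. The count is therefore a description only. The HIST1 core histone genes are nearly identical to each other, so the split of reads among them is uncertain.

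Respiratory chain genes were slightly higher in Molt-4. Of 52 nuclear-encoded members tested, 36 were called higher (69.2%) and 6 lower (11.5%), against 28.5% and 39.4% of all genes. The median was 0.27. UQCRH was at 606 ± 25.6 against 1183 ± 74.6 FPKM, COX5B at 190.2 ± 12.3 against 364 ± 27.8 FPKM and NDUFC2 at 159.5 ± 14.2 against 379.7 ± 48.6 FPKM. Without untreated Molt-4 replicate 3, the library with the most 7SL RNA, 30 were called higher. Cytosolic ribosomal proteins had a median of 0.17, with 38 of 74 called higher and 11 lower, a share of 66.2% near the 67.9% of all genes. Under quantile normalization the median was -0.0044, with 23 called higher and 29 lower, so these genes had no direction common to all scalings. RPS23 was at 3172 ± 85.3 against 5236 ± 327 FPKM and RPL14 at 809.8 ± 13.2 against 1290.4 ± 71.4 FPKM.

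Glycolytic genes differed in both directions. Of 26 tested members 14 were called lower (53.8%) and 7 higher (26.9%), against 39.4% and 28.5% of all genes. PFKM, the muscle-type phosphofructokinase, was at 2.06, 2.32 and 1.74 FPKM in Jurkat and 59, 60.7 and 53.2 FPKM in Molt-4 (log2 difference 4.27 ± 0.12, adjusted p = 1.78e-11), while PFKP was at 144 ± 13.7 against 90.9 ± 1.6 FPKM. HK1 was at 19.97 ± 1.54 against 209 ± 3.05 FPKM and the glucose transporter gene SLC2A3 at 2.95 ± 0.2 against 26.2 ± 1.56 FPKM. PKM was lower in Molt-4, at 732 ± 145 against 241 ± 7.95 FPKM, and so was ENO3, at 40.5 ± 10.5 against 6.85 ± 0.994 FPKM. CYP51A1, an enzyme of cholesterol synthesis, was at 1.61, 1.42 and 1.07 FPKM and 35.5, 35.6 and 36.3 FPKM (log2 difference 3.96 ± 0.13, adjusted p = 4.31e-11). TXNIP, an inhibitor of thioredoxin and glucose uptake, was at 0.02, 0.11 and 0.02 FPKM and 17.5, 17.4 and 16.8 FPKM (log2 difference 4.12 ± 0.08, adjusted p = 4.52e-13).

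**Figure D4:**
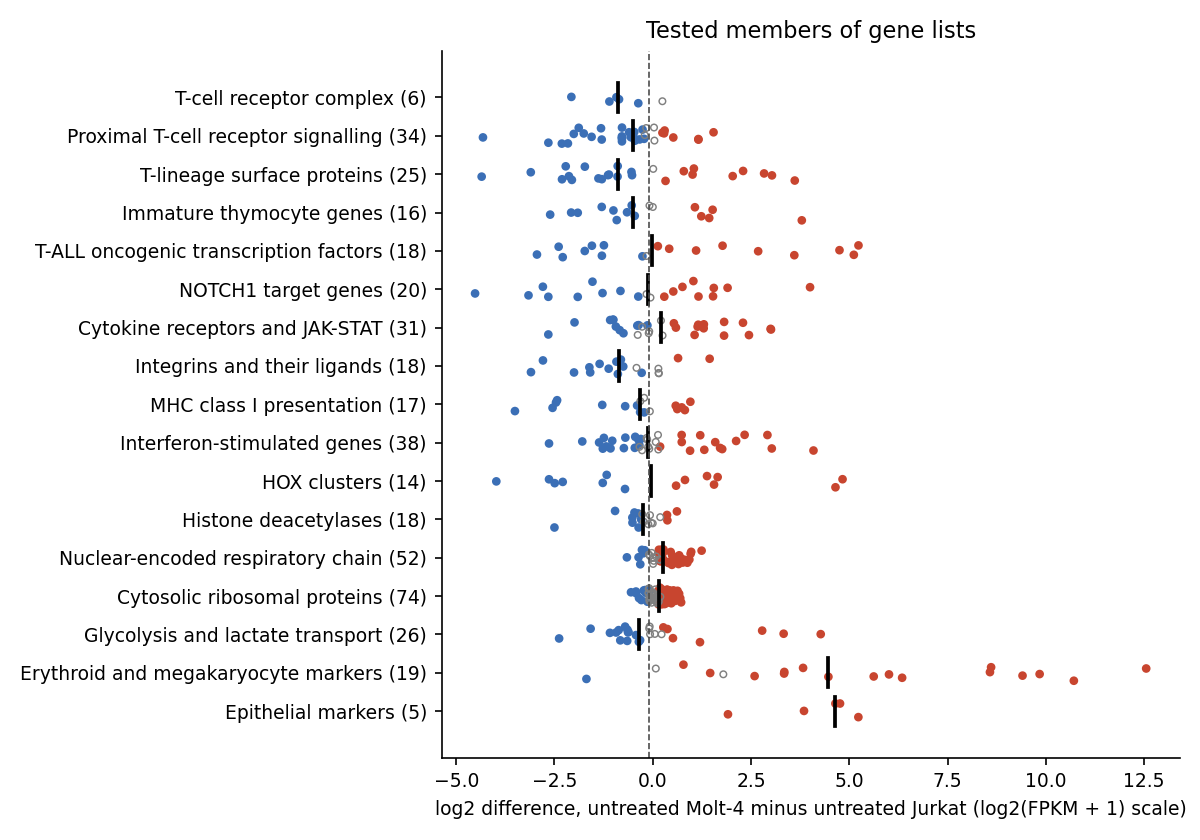
Log2 difference (untreated Molt-4 minus untreated Jurkat) of each tested member of 17 gene lists, with the number tested in brackets. Red and blue points are called higher and lower, open points are not called, black bars are list medians and the dashed line is the median of all genes, -0.091. The erythroid and epithelial medians lie at 4.47 and 4.65, where most members passed the filter through Molt-4 alone, and the medians of the other lists shown lie between -0.89 and 0.27.

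Expression in 1 line only was lopsided. With every library of a line at 5 FPKM or more and every library of the other under 0.5 FPKM, 220 genes were found in Molt-4 only and 46 in Jurkat only. Of the 220, 80 were listed at 0 in all 3 Jurkat libraries, and of the 46, 11 at 0 in all 3 Molt-4 libraries. The Molt-4 set included the globins, LMO2, CCR9 and keratins described before, and cancer-testis genes such as MAGEA3 (47.6, 49.6 and 51.7 FPKM). The Jurkat set included SYK, THY1, LMO1, IL7R and HOXA7. In the treated libraries, 138 of the 220 and 14 of the 46 still met both bounds.

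Genes with large differences often lay side by side. Of genes called at least 2-fold higher in Molt-4, 21.8% had a next tested gene on the chromosome that was also 2-fold higher, where 10.0% of all placed genes were. For 2-fold lower genes the share was 20.8%, against 10.9%. Neighbours that passed the filter through the same line alone had to differ in the same direction. Near-identical neighbours can also share reads. These shares are therefore descriptions, and the part of such genes in them was not tested. Among 12309 genes placed in RefSeq order there were 35 runs of 4 or more such genes in 1 direction, 19 higher and 16 lower in Molt-4. A run of 10 held HBD, BGLT3, HBG1, HBG2 and HBE1 with 5 olfactory receptor genes next to them, of which OR51B5 was at 9.69, 8 and 9.24 FPKM in Molt-4 and listed at 0 in Jurkat. All 10 genes of that run were at 0 in Jurkat, so they passed the filter through Molt-4 alone and had to be higher. Another run of 10 held histone genes of the HIST1 cluster. A run of 9 held PASD1, MIR452 and the MAGEA and CSAG genes, with MAGEA6 at 27.9, 31.5 and 30.3 FPKM in Molt-4 and 0 in Jurkat, and several of its members are near-identical copies. A run of 7 held zinc finger genes from ZNF506 to ZNF85, with ZNF93 listed at 0 in Jurkat and at 14, 14.2 and 17 FPKM in Molt-4. Over all 425 tested ZNF genes, 73 were 2-fold higher and 14 were 2-fold lower, with a median of 0.037 (-0.024 with equal totals without the 7SL RNA genes). Over all genes tested 10.2% were 2-fold higher and 10.9% were 2-fold lower. At any size of difference, 151 ZNF genes were called higher and 106 lower. Some of the 425, such as ZNF93 and ZNF253 at 0 in all Jurkat libraries, passed the filter through Molt-4 alone and had to be higher. The ZNF counts are therefore a description only. Runs lower in Molt-4 were shorter, among them SLAMF6, CD84, CD48, LY9 and CD244, a family of lymphocyte receptors.

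The treated libraries gave the same comparison in other samples, with the spread estimated over all 12 libraries in both. Between treated Molt-4 and treated Jurkat 8604 of the 12503 genes (68.8%) were called. Of the genes called between untreated lines, 6496 (76.5%, and 75.5% of those called between treated lines) were called in the same direction and 340 in the opposite one. Of the 2638 genes that differed at least 2-fold between untreated lines (21.1% of those tested), 2406 (91.2%) were called in the same direction and 34 in the opposite one. HBG2 was at 0.03, 0.18 and 0.16 FPKM in treated Jurkat and at 13887, 14018 and 14319 FPKM in treated Molt-4, LMO2 at 2.04 ± 0.491 and 42.2 ± 2.14 FPKM, and SYK at 12.4 ± 0.315 and 0.45 ± 0.522 FPKM. MYO7B stayed lower in Molt-4, at 122 ± 4.48 and 2.24 ± 0.248 FPKM. Other line differences were small when treated. CD7 was at 33.9 ± 1.48 FPKM in treated Jurkat and 31.2 ± 0.709 FPKM in treated Molt-4 (log2 difference -0.12 ± 0.086, adjusted p = 0.245), CCND2 at 6.36 ± 0.622 and 6.28 ± 0.344 FPKM, and SCARNA16 was listed at 0 in all treated libraries. PRG2, an eosinophil granule protein gene, was at 10.4, 9.43 and 9.43 FPKM in untreated and at 1477, 1541 and 1537 FPKM in treated Molt-4, and near 0 in Jurkat under both conditions. Whether a line difference itself differed between conditions was not tested.

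**Figure D5:**
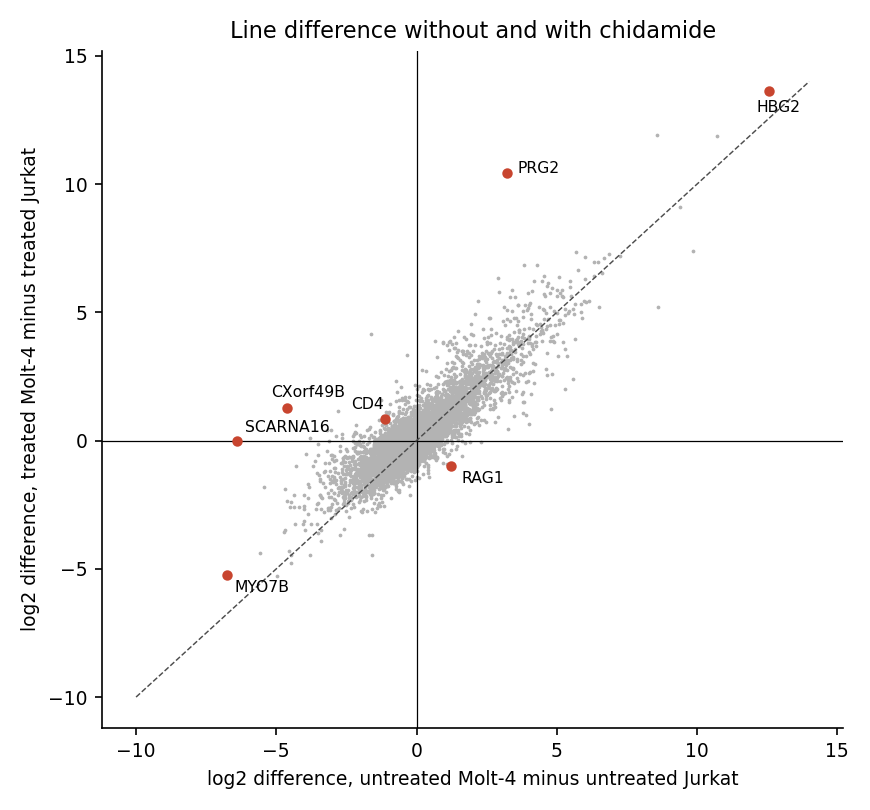
Log2 difference between the lines (Molt-4 minus Jurkat) for each tested gene, untreated on the x axis and treated with chidamide on the y axis, both on the log2(FPKM + 1) scale, with 7 genes labelled and the line of equal differences dashed. HBG2, PRG2 and MYO7B lie on the same side of 0 in both, SCARNA16 lies at 0 when treated, and CD4, CXorf49B and RAG1 lie on the other side of 0.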

How the data were processed

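RNA was measured by sequencing of TruSeq libraries from 1 µg of total RNA. The authors deposited 1 table of FPKM values for the 12 libraries. The submitters' processing notes name STAR, HTSeq, DESeq2 and the build hg19, while versions, gene annotation, strand and normalization steps are not given in the sources used here. The FPKM values keep no count of reads: 18.8% of 7310 low values lay within 0.1 of a whole multiple of the gene's smallest value, against 20% for an even spread. Depth is therefore unknown, and no count model was run.

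From these values, genes with at least 1 FPKM in 3 or more of the 6 untreated libraries were tested on log2(FPKM + 1) with limma 3.58.1 in R 4.3.3. The fit had 4 group means over all 12 libraries, 8 residual degrees of freedom and a trended empirical Bayes variance. The p-values were two-sided and adjusted by Benjamini-Hochberg over the 12503 genes, and a gene was called at an adjusted p under 0.05. The same fit gave the contrast of the treated lines. Its group means share no library with those of the untreated contrast. Both contrasts use the spread estimated over all 12 libraries, so their calls are not independent. The code was checked on simulated data.

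The compared groups and the 42 gene lists were chosen with earlier results of these data known. Lists are described by counts and medians, without a set test. Named were the 12 largest differences in each direction (mean of at least 5 FPKM, no overlap), up to 4 called members per list, a set of T-ALL genes, members of runs of 7 or more neighbours, and commitment and surface genes with a log2 difference of at least 2 in size. Other genes, the motif, the promoters shown and the HIST1 and ZNF families were chosen after their values were seen. The rule also gave 1 Y-linked gene, which is not reported here, nor are some other named genes. Symbols were matched to RefSeq (23122 current, 1088 older). The alternatives were other pseudocounts, filters, scalings, libraries and variance models. Same-numbered untreated replicates of the lines had correlations of their deviations of -0.056, -0.093 and -0.091, so the numbers were not taken as pairs.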

Additional observations from a re-analysis of the deposited data

Results flagged for a closer look

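For 7 of the named genes the libraries of the lines did not overlap and the lines stood in opposite order in the untreated and the treated cultures. Whether these differences between conditions exceed the spread was not tested. RAG1, a recombinase gene, had a log2 difference (Molt-4 minus Jurkat) of 1.23 untreated and -0.99 treated. For the other 6 genes the difference was negative untreated and positive treated. CD4, the coreceptor of helper T cells, was at -1.14 and 0.82. CD79A, a signalling chain of the B-cell receptor, was at -2.88 and 0.19, and the treated difference was not called (adjusted p = 0.125). CXorf49B, a gene of unknown role, was at -4.61 and 1.29. HLA-DMA, which loads peptides onto class II molecules, was at -1.11 and 0.67. PTCRA was at -0.37 and 0.19, where the untreated call was lost in 8 alternatives and the treated difference was not called (adjusted p = 0.225), with means of 0.0467 FPKM in treated Jurkat and 0.203 FPKM in treated Molt-4. TERT, the catalytic subunit of telomerase, was at -1.64 and 0.55.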

How the results depend on the processing

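Of 230 genes tested across 21 alternatives, 224 kept their direction and their side of the threshold in every alternative that gave them a value. With the filter of at least 5 FPKM, 40 of the 230 were not tested. The others were INPP5D, RAG2, PTCRA (call lost in 8), RFXAP (lost in 3), BAX (gained in 5) and MYC (gained in 3). INPP5D, at 0.01 as reported, was at -0.049 with equal totals without the 7SL RNA genes, and between -0.082 and 0.15 with 1 library left out. RAG2, at -0.08 as reported, was at 0.025 with median-of-ratios scaling, at 0.0024 with quantile normalization and between -0.15 and 0.037 with 1 library left out. Neither gene was called in these, and the cause was not tested.

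With a log2 difference of at least 1 in size as well, 1270 genes were called higher and 1368 lower in Molt-4. Leaving out 1 library in turn gave 3279 to 3610 genes higher and 4612 to 4894 lower. The fit with the replicate number as a block gave 3538 higher and 4881 lower, although the numbers did not pair the samples. With a bound of 2 FPKM in the expressing line, 424 genes were found in Molt-4 only and 149 in Jurkat only, and with a bound of 10 FPKM 123 and 23, which follows from the bound. List counts without untreated Jurkat replicate 3 or untreated Molt-4 replicate 3, chosen after seeing the data, were 15 and 16 for the erythroid genes called higher, 4 and 5 for the receptor complex called lower, and 34 and 30 for the respiratory chain called higher. Unknown depth limits the precision of low values.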
